A study of Caenorhabditis elegans with 2 samples.

Results

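Strong binding sites of RPC-1 lay in or beside 9 protein-coding genes of Caenorhabditis elegans, far from any gene that RNA polymerase III (Pol III) is annotated to transcribe. The genes are zip-7, lips-10, sms-3, vps-37, F02E8.4, W08A12.2, D2096.7, F59A1.18 and Y59E1A.4, 9 of the 19971 protein-coding genes of the 6 nuclear chromosomes. They were chosen by 2 values of these same data, the high signal of a peak in or next to the gene and the distance of that peak from annotated Pol III genes. Peak strength and distance are therefore given below as a description, with no test.

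RPC-1 is the largest subunit of Pol III. Binding was measured by chromatin immunoprecipitation with sequencing (ChIP-seq) in whole young adults of strain YL517, a mixed-sex population that stably carries a transgenic RPC-1 with GFP and FLAG at its C terminus. There were 2 biological replicates of 1 group, the chromatin was sheared by sonication, and no other genotype, stage or treatment was analysed here. The antibody, strain and line labels name rpc-1, whereas a free-text label names PRC-1. Every value is an average over all tissues of the animals, and the tagged transgene stands in for the untagged protein. Read depth is unknown, so no interval for counting error is given.

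Pol III makes tRNAs, 5S rRNA, U6 snRNA and a few other short RNAs. The promoter of a tRNA gene lies inside the transcribed sequence. It has an A box near the start of the tRNA and a B box further in, and the factor TFIIIC binds both and brings TFIIIB and the polymerase to the gene. Pol III ends transcription at a short run of T in the non-template strand. In worms, as in other animals, such a gene can lie inside an intron of a protein-coding gene or between genes, on either strand.

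The sequences at the summits are shown first, since they carry the feature that most of these sites shared. Each is read from the RefSeq reference (WBcel235, the assembly that ce11 names), 5′ to 3′ along the strand of its boxes. It starts 15 bases before the A box and runs to the first run of 4 T after the B box. Capitals mark the A box, the B box and that T run. At 6 of the 9 genes both boxes matched their patterns with no mismatch:
lips-10 (chrII:8441625-8441712, minus strand): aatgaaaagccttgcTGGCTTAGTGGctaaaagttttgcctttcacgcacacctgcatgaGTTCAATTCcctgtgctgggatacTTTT
sms-3 (chrIII:1599117-1599206, plus strand): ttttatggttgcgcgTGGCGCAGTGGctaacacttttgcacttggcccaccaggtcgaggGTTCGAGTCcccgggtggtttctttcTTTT
vps-37 (chrV:5592068-5592153, plus strand): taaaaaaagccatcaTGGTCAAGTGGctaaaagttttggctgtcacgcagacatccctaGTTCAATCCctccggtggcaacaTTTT
F02E8.4 (chrX:4453263-4453349, plus strand): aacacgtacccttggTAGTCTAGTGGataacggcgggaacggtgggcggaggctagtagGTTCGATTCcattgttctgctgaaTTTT
W08A12.2 (chrV:3686054-3686141, minus strand): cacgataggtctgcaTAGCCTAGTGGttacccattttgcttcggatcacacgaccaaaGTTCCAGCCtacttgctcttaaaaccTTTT
Y59E1A.4 (chrX:1939390-1939475, minus strand): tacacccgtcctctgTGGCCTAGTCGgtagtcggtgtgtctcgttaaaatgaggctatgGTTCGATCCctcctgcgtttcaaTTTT

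At the other 3 genes the pair was imperfect. D2096.7 and F59A1.18 each had a full A box and a B box with 1 letter off the pattern. zip-7 had 1 letter off in each box, a pair found only under a looser search chosen after these values were seen. No run of 4 T followed the D2096.7 boxes within 100 bp, so that sequence ends without one:
zip-7 (chrIV:16503720-16503802, minus strand): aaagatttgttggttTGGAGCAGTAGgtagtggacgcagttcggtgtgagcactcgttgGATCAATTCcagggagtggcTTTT
D2096.7 (chrIV:8375532-8375620, minus strand): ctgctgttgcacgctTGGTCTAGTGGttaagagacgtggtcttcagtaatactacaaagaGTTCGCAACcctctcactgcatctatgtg
F59A1.18 (chrV:17687533-17687619, minus strand): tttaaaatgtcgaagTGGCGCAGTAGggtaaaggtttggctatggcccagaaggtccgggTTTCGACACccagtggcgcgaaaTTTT

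The B box was searched as GTTCNANNC on both strands within 100 bp of each summit, and it was present at the highest peak of 6 of the 9 genes. The same search found it at 94.8% of the 541 peaks whose summit lay within 100 bp of an annotated tRNA gene. It found it at 54.8% of the 1288 other optimal peaks over 1 kb from Pol III genes and tRNA pseudogenes, and at 6.31% of windows of the same length around the starts of all 19971 protein-coding genes. No test was made between the 9 genes and the other distant peaks. All 6 B boxes had an A box 20 to 100 bp upstream on the same strand, and all 6 were followed by 4 T within 100 bp. Among the distant peaks with a B box, 76.1% had the A box and 67.4% the T run.

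A tRNA-like pair was then defined as an A box and a B box on 1 strand, with starts 43 to 57 bp apart and at most 1 mismatch over the 12 fixed letters of the pair. That spacing holds the central 95% of annotated tRNA genes with both boxes. The pair was present at 8 of the 9 highest peaks. It was present at 97.0% of the tRNA gene peaks, at 62.6% of the other distant peaks and at 2.00% of the promoter windows. At the 86 peaks with the summit within 100 bp of a tRNA pseudogene, the share was 94.2%. The F59A1.18 peak lay within 1 kb of a tRNA pseudogene, which the other distant peaks by definition did not. Next, 16 other distant peaks were taken that were at least as high as that of Y59E1A.4, the lowest of the 9. They had no gene or only a protein-coding gene within 100 bp, and 13 of them held the pair. The B box was at 10 of the 16, with an A box upstream at 8 of these and a T run after it at 7. The pair and the B box were thus not particular to the 9 genes among strong distant sites of that kind. The looser pair, with at most 2 mismatches and a spacing of 44 to 45 bp, brought in zip-7 and was found in 6.26% of the promoter windows.

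At the 8 genes with a pair the starts of the boxes were 43 to 45 bp apart, at the low end of the 43 to 57 bp that the search admitted. The median was 44.5 bp, as in the 570 tRNA genes with both boxes. The spacing at zip-7, 44 bp, was set by the looser search and is not counted. Measured along the strand of the boxes, the A box at the 8 genes started a median of 6 bp before the summit and the B box 38 bp after it. At tRNA gene peaks the A box started a median of 6 bp before the summit and the B box 39 bp after it, with quartiles of 31 and 44 bp for the B box. By these medians the summit fell inside the A box in both sets. The boxes of 2 genes lay apart from the rest. At lips-10 the A box started 24 bp and the B box 69 bp past the optimal summit, and at D2096.7 the B box started 1 bp past it. At these same 2 genes the summit of replicate 2 lay elsewhere, 21 bp lower on the chromosome for lips-10 and 19 bp lower for D2096.7. From the replicate 2 summit the B box of lips-10 started 48 bp on, nearer to the tRNA gene value, and that of D2096.7 at -18 bp, further from it. After the B box, the first run of 4 T began 14 to 17 bases past its end (median 15) at 7 of the 8 genes, all but D2096.7, and 11 bases past it at zip-7. A run of 4 T also lay between the boxes, which the capitals do not mark, at 4 of the 9 genes: lips-10, sms-3, vps-37 and W08A12.2. Such a run was present in 6.29% of 556 tRNA genes and at 19.4% of the 806 other distant peaks with a pair. Where transcription would end at these sites was not measured.

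**Figure D1:**
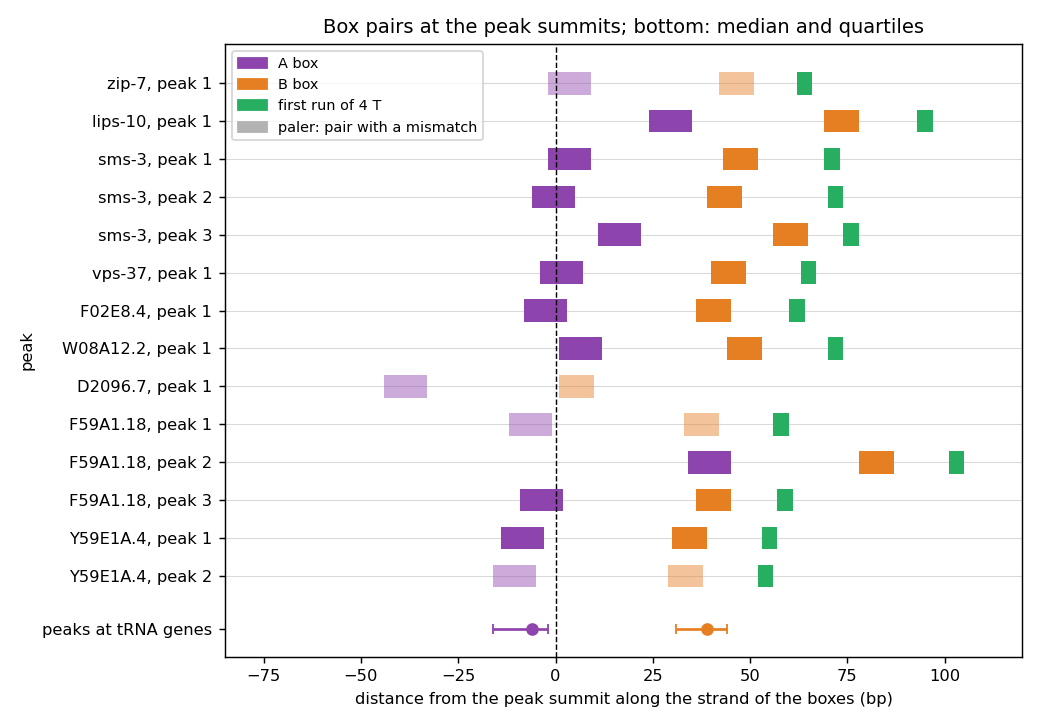
Position of the A box, B box and first run of 4 T at 14 of the 15 peaks, along the strand of the boxes, with 0 bp at the summit and the strongest peak of a gene numbered 1. The bottom row gives medians and quartiles over peaks at tRNA genes. Most member boxes line up above it, with lips-10, D2096.7, peak 3 of sms-3 and peak 2 of F59A1.18 shifted.

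The boxes ran along the same strand as the gene at 7 of the 9 highest peaks, zip-7 by its looser pair included, and along the opposite strand at lips-10 and sms-3. Most of the stretches from the A box to the B box differed widely. Over the 14 stretches at these genes, the 91 pairs had a median identity of 59.3%, after global alignment. The closest pair from different genes was lips-10 and vps-37, on II and V, at 79.6%. The peaks of F59A1.18 also resembled one another, at 74.1% to 81.5%.

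The stretches were then set against annotated tRNA genes, without tRNA pseudogenes. At the 9 highest peaks, the best match of the stretch among 556 tRNA genes had an identity of 64.8% (zip-7, to a tRNA-Ala gene) to 70.9% (vps-37, to a tRNA-Pro gene), with a median of 68.4%. At the lower peaks with a pair it was 67.9% (Y59E1A.4, peak 2) to 77.8% (F59A1.18, peak 3, to a tRNA-Ile gene). The same measure had a median of 69.6% at the 806 other distant peaks with a pair and 58.7% in the 399 promoter windows with a pair. It was 72.7% for tRNA genes set against tRNA genes of other amino acids. The stretch includes both boxes, by which it was selected, so part of the identity was set by the search. The pair was exact at 551 of the 806 peaks but in 18 of the 399 windows. Identity outside the boxes was not measured separately. The summit windows were also searched for local matches among tRNA genes and tRNA pseudogenes together. A local match takes only the best-matching part of a window, so its identity cannot be set against the values above. The longest of the best local matches were to tRNA pseudogenes. They had an identity of 87.3% over 63 bp for F59A1.18, 83.1% over 59 bp for sms-3, 82.3% over 62 bp for vps-37 and 78.8% over 52 bp for lips-10, the last 2 with the same pseudogene, K10B2.t1. At the other 5 genes the best match to a tRNA gene or pseudogene was 15 to 30 bp long. Over the whole stretch and against tRNA genes alone, the median of the 9 lay between the quartiles of the other distant peaks, which were 66.7% and 72.2%.

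Signal values are the authors' own score for each peak and have no upper limit. They are compared here only inside a list, because each list has its own scale. The optimal list held 2123 peaks that ranked alike in both replicates, with a median of 355 and a highest value of 9672. The replicate 1, replicate 2 and pooled lists held 26455, 27629 and 24907 peaks. All 9 genes had an optimal peak in the gene or within 1 kb, as the choice required, and 7.45% of all protein-coding genes did. An optimal peak over 1 kb from Pol III genes and at least as high as that of Y59E1A.4 was near 106 genes, or 0.531%. Both shares are the background of the choice, and nothing is read from them.

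The highest peaks of the 9 genes ranked between 15 and 381, with a median rank of 138. Each was set beside the peaks directly above and below it in rank, and 14 of these 18 neighbours lay at tRNA genes, 2 at snoRNA genes, 1 at another Pol III gene and 1 at no gene. Most of all optimal peaks between ranks 15 and 381 lay at tRNA genes. The neighbours therefore describe these ranks, which follow from the signal used in the choice, and nothing is read from the count. Peaks at tRNA genes had a median signal of 3042, below the signal of 8 of the 9 genes. The summit at the highest peaks stood 5448 to 625243 bp from the nearest annotated Pol III gene, with a median of 97553 bp. The peaks were 701 to 901 bp wide, with a median of 876 bp, against 623 bp over all optimal peaks. The 9 were chosen for high signal, and their width was not compared with that of other peaks of like strength.

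**Figure D2:**
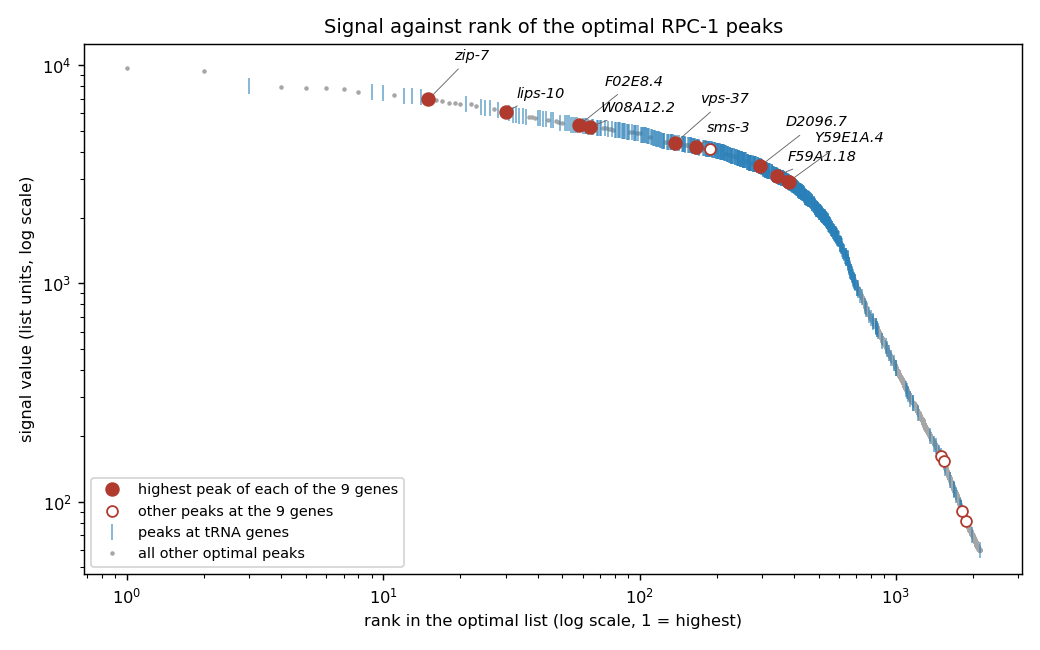
Signal value (list units, log scale) against rank (log scale) of all 2123 optimal peaks, with the peaks of the 9 genes in red and those at tRNA genes as blue ticks. The highest peaks of the 9 genes lie on the upper part of the curve, between ranks 15 and 381, while 4 of their 6 further peaks lie at its lower end.

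zip-7 encodes a bZIP domain protein, a class of transcription factors, and its site was the strongest of the 9. The signal was 6946 in the optimal list (rank 15), 4121 in replicate 1 (rank 15) and 2837 in replicate 2 (rank 14). The summit, at position 16503785 of IV, was the same base in all 3 lists. It lay in an intron, 1897 bp into the gene, and 73521 bp from the nearest Pol III gene. This was the strongest of the 586 optimal peaks classed to a protein-coding gene body, yet the only one of the 9 without a pair at up to 1 mismatch.

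lips-10, a gene of the lipase-related lips family, had the next strongest site, also in an intron. The signal was 6082 in the optimal list (rank 30), 3546 in replicate 1 (rank 32) and 2548 in replicate 2 (rank 27). The summit was 2553 bp into the gene and 190236 bp from the nearest Pol III gene, on the strand opposite to the gene by its boxes. The nearest optimal peak outside the widened gene was 104579 bp from the gene, so no other optimal peak was near.

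F02E8.4, annotated as a serine/threonine protein kinase, had its site 834 bp upstream of the gene, in intergenic DNA. The signal was 5289 in the optimal list (rank 58), 3172 in replicate 1 (rank 58) and 2121 in replicate 2 (rank 67). A tRNA gene lay 8201 bp away. The nearest optimal peak outside the widened gene, 8628 bp from the gene, was at a tRNA gene and had a signal of 4278, lower than the F02E8.4 site itself.

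W08A12.2 is annotated as a neuropeptide-like gene. Its site, 235 bp upstream, was also inside an intron of W08A12.3, so that either gene could be named for it. The signal was 5200 in the optimal list (rank 64), 3050 in replicate 1 (rank 76) and 2163 in replicate 2 (rank 60). The nearest Pol III gene was 97553 bp away.

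vps-37 encodes a subunit of ESCRT-I, which sorts membrane proteins at the endosome. Its site lay 613 bp upstream, in intergenic DNA with CD4.11 nearer, at 404 bp. The signal was 4400 in the optimal list (rank 138), 2556 in replicate 1 (rank 162) and 1844 in replicate 2 (rank 117). The nearest Pol III gene was 261877 bp away.

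sms-3, annotated as a putative sphingomyelin synthase gene of membrane lipid synthesis, was the only one of the 9 with more than 1 strong site. Peak 1 lay in an intron 2010 bp into the gene and had a signal of 4216 in the optimal list (rank 166), 2511 in replicate 1 (rank 170) and 1722 in replicate 2 (rank 160). Peak 2 lay in an intron 264 bp into the gene and had 4123 in the optimal list (rank 188), 2603 in replicate 1 (rank 147) and 1818 in replicate 2 (rank 125). Peak 2 was thus the higher of the pair in both replicate lists and the lower in the optimal list. Peak 3 lay 499 bp upstream, within the same called interval as peak 2, and had 2926 in the optimal list (rank 377), 1980 in replicate 1 (rank 315) and 1320 in replicate 2 (rank 305). Each of the 3 summits had its own exact pair of boxes with a spacing of 45 bp, on the opposite strand to the gene at peak 1 and on the gene's strand at peaks 2 and 3. The pairs of peaks 2 and 3 are shown because they set apart 2 sites inside 1 interval:
sms-3, peak 2 (chrIII:1600807-1600901, minus strand): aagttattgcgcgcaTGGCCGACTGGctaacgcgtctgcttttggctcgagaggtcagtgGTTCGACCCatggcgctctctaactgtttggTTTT
sms-3, peak 3 (chrIII:1601566-1601647, minus strand): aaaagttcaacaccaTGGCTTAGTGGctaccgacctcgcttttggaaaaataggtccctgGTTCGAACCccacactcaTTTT

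The sms-3 sites were the nearest of the 9 genes to an annotated Pol III gene, the tRNA gene Y22D7AL.t3, which lay 5448, 3702 and 2939 bp from peaks 1, 2 and 3.

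D2096.7, whose annotated products are named only for a DDE-1, an ELYS or a FA_FANCE domain or as uncharacterised, had its strong site past its end, 161 bp downstream and 190 bp from aagr-1. The signal was 3439 in the optimal list (rank 295), 2079 in replicate 1 (rank 288) and 1369 in replicate 2 (rank 289). It was the most remote of the 9 from a Pol III gene, at 625243 bp. A second peak 170 bp upstream, in the non-coding part of an exon of nap-1, had a signal of only 81.3 (rank 1873) and no box pair.

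F59A1.18, which encodes a protein with a saposin B-type domain, had annotated tRNA pseudogenes close by. Its highest peak, 640 bp upstream and inside an intron of F59A1.13, had 3112 in the optimal list (rank 343), 1934 in replicate 1 (rank 326) and 1184 in replicate 2 (rank 360). The nearest tRNA gene was 145063 bp away, but the tRNA pseudogene F59A1.t6 was 842 bp from the summit. Further peaks of 162 (rank 1494), in an intron of F59A1.6, and 90.5 (rank 1814), on the tRNA pseudogene F59A1.t3 in an intron of F59A1.18, each held an exact pair. This was the only one of the 9 highest peaks within 1 kb of a tRNA pseudogene.

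Y59E1A.4, an uncharacterised gene, had the lowest of the 9 highest peaks, in an intron 541 bp into the gene. The signal was 2917 in the optimal list (rank 381), 1738 in replicate 1 (rank 392) and 1183 in replicate 2 (rank 361). The nearest Pol III gene was 58558 bp away. A second peak 943 bp downstream had a signal of 153 (rank 1538) and a pair with 1 mismatch, in the A box.

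In all, 15 optimal peaks lay at the 9 genes, 1 each at 5 genes, 2 at 2 genes and 3 at 2 genes. The highest summit was inside the gene at 4 genes, each time in an intron, and outside it at 5. That split depends on which gene is named, since the W08A12.2 and F59A1.18 summits lay in introns of other protein-coding genes. Of the 15 peaks, 13 held a pair with at most 1 mismatch, including 5 of the 6 that were not the highest of their gene. The share was 62.6% at the other distant peaks and 94.2% at tRNA pseudogene peaks. Peak 3 of F59A1.18, among the 5, had its summit on a tRNA pseudogene.

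**Figure D3:**
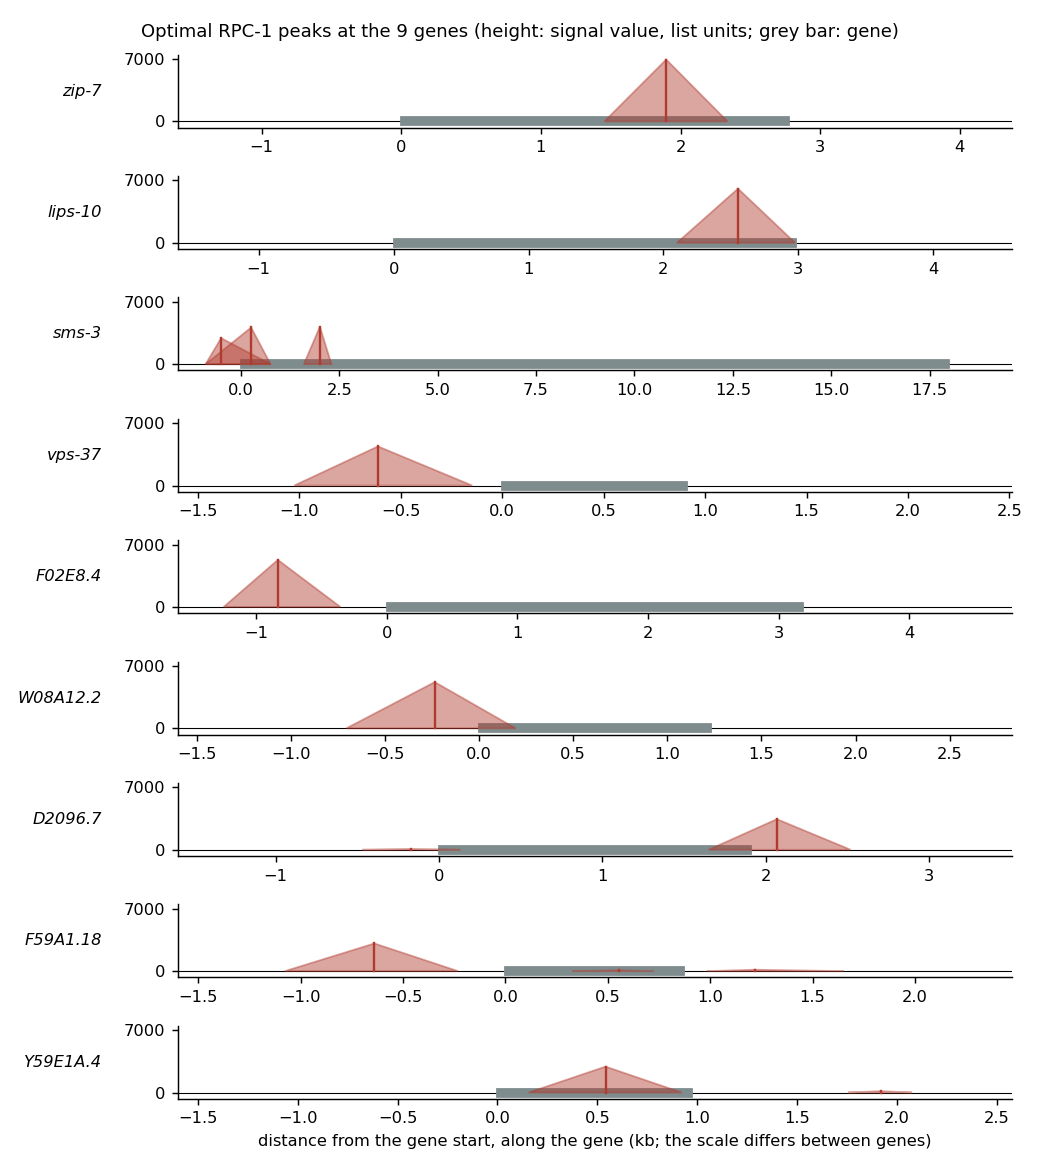
Optimal peaks at each gene, with the distance from the gene start along the gene (kb) on the x axis and the signal value (list units) as height. Each triangle spans a called interval with its tip at the summit, and the grey bar is the gene; the strong summits fall in introns, upstream or, for D2096.7, past the gene end.

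The replicates placed the sites alike. The summit of the highest peak lay within 2 bp of the optimal summit at all 9 genes in replicate 1 and at 7 genes in replicate 2, all but lips-10 and D2096.7. For the peaks that were highest in the optimal list, the order of the genes by rank differed in 1 pair between the replicates. With sms-3 taken at its highest peak in each list, it also changed places with vps-37, at ranks 147 and 162 in replicate 1 and 125 and 117 in replicate 2. F02E8.4 ranked above W08A12.2 in replicate 1 and below it in replicate 2, so their ranks of 58 and 64 in the optimal list did not differ beyond the spread between the replicates. F59A1.18 and Y59E1A.4 had directly adjoining ranks in replicate 2, 360 and 361, and ranks of 326 and 392 in replicate 1.

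**Figure D4:**
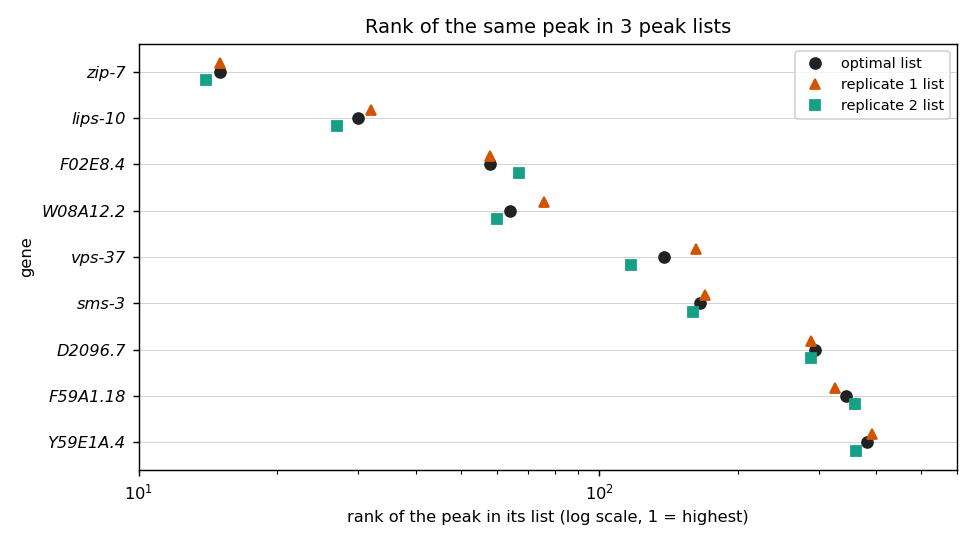
Rank of the optimal list's highest peak of each gene (log scale) in the optimal, replicate 1 and replicate 2 lists. The 3 ranks of a gene lie close together, and the widest gap is at vps-37, with rank 117 in replicate 2 and rank 162 in replicate 1.

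Short reads can be placed with confidence only where the sequence is unique. Within 100 bp of each highest summit, all 36-base words were unique in the genome at 7 of the 9 genes. The share was 98.2% at vps-37 and 72.9% at F59A1.18, whose window had 262 other copies of at least 50 bp and 80% identity in the genome. By that measure sms-3 had 6 other copies, vps-37 had 3 and zip-7 had 1, and the other 5 genes had none. The part of such copies in the F59A1.18 signal was not tested.

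Optimal peaks were also counted in the families of 4 of the genes. Those at the relatives were all lower than the peaks of the chosen gene, but that gene was picked for its high signal. Of 12 bZIP genes named zip, 3 had an optimal peak, and beside zip-7 they were zip-5, with 226, and zip-6, with 283. Of 14 lips genes, 2 had one, lips-10 and lips-11, the second with 871 at a summit nearer to col-40. Of 4 sms genes, sms-3 had its 3 strong peaks and sms-1 had 1 of 578 (rank 866). Of 4 ESCRT-I genes, vps-37 alone had one. Without the widening of the gene span, zip-5, zip-6, lips-11 and vps-37 had none. Against the 7.45% of all protein-coding genes with an optimal peak nearby, these counts include the genes chosen for having one, and nothing is read from them.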

How the data were processed

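ChIP-seq peaks of RPC-1 from 2 replicates of 1 group were read from the deposited narrowPeak lists on ce11. Per the deposited file descriptions, the replicate lists were made from each replicate and a control, the pooled list from both replicates, and the optimal list from these by the irreproducible discovery rate. The aligner and peak caller were not given in the sources used here. As deposited, the signal value is a score of the authors, 1 per peak, and the summit is the deposited offset.

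Each peak was placed on the RefSeq annotation of WBcel235 with a minimum overlap of 1 bp and gene spans widened by 1000 bp. Pol III genes were 612 tRNA genes and other named classes, 660 in all. Boxes were searched with Python 3.11.15, pandas 2.3.3 and numpy 2.4.6, stretches were aligned with Biopython 1.88 (match 1, mismatch -1, gap opening -2, gap extension -1), and copies were found with BLAST+ 2.17.0. The searches were tested on simulated sequences with exact boxes planted and no mismatch allowed. The settings that admit mismatches were not tested in this way. No test was made, since 1 group was analysed. Spans, thresholds, motifs and replicates were varied. The members and lists were chosen with earlier results of these data known, and only the 9 genes, genes that place a peak and family genes with a peak were named. The ce10 lists were not used here.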

Additional observations from a re-analysis of the deposited data

How the results depend on the processing

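Of 41 alternatives for the counts and medians over the 9 genes and their families, 33 left the value close and 8 moved it. The rule for a count was wide, and a fall from 6 genes to 4 was labelled close. A median was labelled close only within the SD between the replicates. For the distance to the B box both replicates gave 39.5 bp, so any alternative that differed from the main value was labelled moved. The pooled list is not counted, since the optimal list is its top and gave the same values. With 50 bp in place of 100 bp around the summit, the B box was at 3 genes instead of 6 and the tRNA-like pair at 5 instead of 8. With the stricter GTTCGANNC, 3 genes had a B box, at a median of 36 bp past the summit, against 41.5 bp with GTTCNANNC. With GTTCGANTC and at most 1 mismatch 4 genes had a B box, at a median of 39.5 bp. Leaving out either replicate gave 39.5 bp, with a B box at 6 genes and a pair at 8, and with sms-3 taken at its peak 2. Without widening the gene span, 4 family genes had a peak, instead of 8. The cause was not tested.

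The alternatives for the tRNA-like pair were chosen after the data were seen. Leaving out either replicate left a peak at 9 of 9 genes among as many of the strongest peaks as the optimal list held. The median rank of the 9 moved from 138 to 147 in replicate 1 alone and to 117 in replicate 2 alone. Each gene was taken at its highest peak in each list, so sms-3 changed from peak 1 to peak 2 in both replicates. The value of 147 is the replicate 1 rank of that peak 2. The rank of a single gene moved by more than 1 SD of its ranks in the 2 replicates in 7 of 18 cases. Both sms-3 cases were among the 7 and compare different peaks. No paired analysis was possible because there was 1 group. With 2 replicates, unknown depth and no second condition, small differences in rank or signal between genes could not be judged.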
